A study of Mus musculus with 4 samples.

Results

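The SoxB and SoxC transcription factors were taken as 7 gene rows of the count tables, out of 24421 gene symbols, by their names. The family was chosen with earlier results of these data known. Sox1, Sox2 and Sox3 form subgroup B1, Sox21 belongs to subgroup B2, and Sox4, Sox11 and Sox12 form subgroup C. All 7 passed the filter on low counts, as did 15012 genes in all. Poly(A) RNA came from mouse neural stem cells on the C57BL/6J background, taken from the cerebral cortex at embryonic day 17 and grown for 1 day with bFGF and EGF at 10 ng/mL each, growth factors that keep such cells dividing. The floxed control group (Prrc2bf/f, 2 libraries) carried loxP-flanked Prrc2b alleles without a Cre transgene. The other group (Prrc2bf/f; Nestin-Cre, 2 libraries) carried the same floxed alleles with a Cre recombinase driven by regulatory sequence of Nes, which drives recombination mainly in cells of the neural lineage. The comparison addresses what deletion of Prrc2b does to transcripts of neural stem cells. Prrc2b encodes a proline-rich RNA-binding protein, which has been described as a reader of N6-methyladenosine that stabilizes Sox2 mRNA in oligodendrocyte progenitors.

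SoxB1 proteins keep neural progenitors undifferentiated and bind DNA through an HMG box, usually next to a partner such as a POU factor. Sox21 binds similar sites but acts mainly as a repressor and counters SoxB1 activity. SoxC proteins act later, when progenitors leave the cell cycle, and switch on neuronal genes, so the balance between the subgroups is commonly read as a marker of progress from progenitor to neuron.

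All 7 genes have 1 exon. In mm10 coordinates (GRCm38, GENCODE release M21), Sox2 lies on chromosome 3 at 34650405 to 34652461 on the plus strand, Sox1 on chromosome 8 at 12395295 to 12400126 on the plus strand and Sox3 on chromosome X at 60891366 to 60893430 on the minus strand. Sox21 lies on chromosome 14 at 118233232 to 118237030, Sox4 on chromosome 13 at 28948919 to 28953713, Sox11 on chromosome 12 at 27334264 to 27342574 and Sox12 on chromosome 2 at 152393611 to 152398063, each on the minus strand. Upstream sequence is shown for Sox2 and Sox4, the most abundant members of subgroups B1 and C. Sequence is also shown for the members with a full octamer, ATGCAAAT, the site of the POU partner factors. The sequences are from RefSeq (GRCm38.p6), which matched 6 of the 7 members, all but Sox3. Capitals mark the octamer and the CCAAT box on either strand (ATTGG is its reverse complement). The Sox2, Sox4 and Sox12 stretches, at chr3:34649745-34649994 (plus strand), chr13:28953714-28953949 (minus strand) and chr2:152398064-152398296 (minus strand), lie upstream of both the RefSeq and the GENCODE start. The Sox1 stretch, chr8:12395527-12395554 (plus strand), lies just after the RefSeq start and inside the GENCODE exon, so it is not upstream sequence.
Sox2: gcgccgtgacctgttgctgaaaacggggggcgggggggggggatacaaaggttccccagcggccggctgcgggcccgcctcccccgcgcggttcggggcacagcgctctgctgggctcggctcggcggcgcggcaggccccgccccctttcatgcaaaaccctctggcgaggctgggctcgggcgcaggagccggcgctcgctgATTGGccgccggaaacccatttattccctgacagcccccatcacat
Sox4: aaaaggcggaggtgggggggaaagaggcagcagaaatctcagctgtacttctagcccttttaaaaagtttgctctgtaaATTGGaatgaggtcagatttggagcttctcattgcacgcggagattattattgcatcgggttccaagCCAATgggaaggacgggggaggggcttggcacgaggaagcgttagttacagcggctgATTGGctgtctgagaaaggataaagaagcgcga
Sox12: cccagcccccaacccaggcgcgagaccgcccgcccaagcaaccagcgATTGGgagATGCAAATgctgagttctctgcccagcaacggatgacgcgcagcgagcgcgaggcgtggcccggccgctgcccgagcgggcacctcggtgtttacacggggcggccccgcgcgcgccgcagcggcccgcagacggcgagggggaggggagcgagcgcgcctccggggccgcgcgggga
Sox1: ccagcgcgccATGCAAATcaccgccgcc

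In windows from 250 bases before to 50 bases after the RefSeq start, the octamer on either strand was found for Sox1 and Sox12, and in 1.74% of all 32851 promoter windows. The CCAAT box was found for Sox1, Sox2, Sox4, Sox11 and Sox12, and in 37.4% of all windows. The SOX core AACAAAG, also searched on both strands, was in none of the 6 windows and in 5.85% of all. None of these motifs contains another on either strand, and a match is a description of the letters only.

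Gene totals were 25936794 to 28263272 counts per library, and the members had between 1612 (Sox21) and 18912 (Sox4) counts in a library. The labels do not say whether replicates are separate embryos or cultures. The p-values reflect the scatter of these 4 libraries alone, and that scatter may be technical. The edgeR fit also drew the variance of each gene toward that of other tested genes, with 34.3 prior degrees of freedom. Its SEs, intervals and p-values therefore rest mostly on scatter shared across genes, and do not measure the spread of a gene's own replicates alone. Prrc2b itself stood at 590 ± 4.19 CPM (CPM, the count scaled to a common library total; SD, n = 2) in control against 575 ± 1.43 CPM with Nestin-Cre (log2 fold change -0.04 ± 0.02 SE, edgeR quasi-likelihood test, adjusted p = 0.134). Which exon is floxed is unknown here, so this total does not check the label. Uty, Kdm5d, Eif2s3y and Ddx3y, all Y-linked, had 180 to 667 counts in the control libraries and 0 in both libraries labelled Nestin-Cre, while the female-specific RNA Xist stood at 1639 ± 40.5 and 2169 ± 64.2 CPM. The control libraries thus held both Y-linked transcripts and Xist, as a mix of male and female cells would. In the Nestin-Cre libraries only Xist of these was counted. Genotype, Cre and the sex make-up of the embryos therefore cannot be told apart in any comparison of these groups.

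Sox2 transcript did not differ detectably between the groups, whereas Sox3, Sox21 and Sox4 were higher in the libraries labelled Nestin-Cre. Each of these 3 rose by a similar, small amount, between 1.16-fold and 1.18-fold. Sox11 rose by 1.05-fold and lay at the limit of the test, Sox12 did not pass it, and Sox1 did not pass it and was slightly lower on average. In all, 4 of the 7 genes were called higher and 0 lower at adjusted p under 0.05 (edgeR quasi-likelihood test), against a background of 15.1% of all tested genes called higher, 18.1% called lower and 33.1% called in either direction. Among the 4270 genes with a mean log2 CPM of at least 6, as abundant as these 7, 20.3% were called higher and 48.3% in either direction. With 7 genes chosen by family, these shares are set side by side as a description only.

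Sox2, the factor that maintains neural stem cells, had 430.4 and 457 CPM in control replicates 1 and 2, and 443 and 445 CPM in the libraries labelled Nestin-Cre. The values of the Nestin-Cre group lay between the control values. The means were 444 ± 18.9 and 444 ± 0.714 CPM (SD, n = 2), and the log2 fold change was -0.01 ± 0.03 (adjusted p = 0.868, edgeR quasi-likelihood test). The ratio was 0.995 with a 95% interval from 0.960 to 1.03. Leaving out control replicate 1 moved the log2 fold change to -0.05 and leaving out control replicate 2 moved it to 0.04, with adjusted p of 0.179 and 0.368. The sign also turned with upper quartile and total count scaling, and Sox2 was called in 0 of 14 alternatives that tested for any difference. Counting error was smaller than the spread between the controls. Sox2 was 6.23% higher in control replicate 2 than in control replicate 1 with a counting error of 1.36% (SE), but the replicates labelled Nestin-Cre differed by 0.241% with a counting error of 1.29%.

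Sox3, the X-linked B1 member, had 129 and 139 CPM in control and 154 and 159 CPM in the libraries labelled Nestin-Cre. The groups did not overlap. The log2 fold change was 0.22 ± 0.03 (adjusted p = 2.86e-06), a ratio of 1.16 with a 95% interval from 1.11 to 1.22. Sox3 is the most GC-rich member, at 66.4% against a median of 49.8% over tested genes, and correction for GC content and length lowered the log2 fold change to 0.14 (adjusted p = 0.000223). Of 509 X-linked genes tested 17.3% were called higher and 13.9% lower, against 15.1% and 18.1% of all tested genes. The part of embryo sex in the Sox3 value was not tested.

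Sox1, the third B1 factor, had 73.6 and 82.8 CPM in control against 75.3 and 73.6 CPM, so the groups overlapped. Its log2 fold change of -0.08 ± 0.04 did not pass (adjusted p = 0.174), with a ratio of 0.947 and a 95% interval from 0.890 to 1.01. This value rests on which control is used. Without control replicate 1 it was -0.16 and passed (adjusted p = 0.0058), and without control replicate 2 it was 0.01 (adjusted p = 0.931).

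Sox21, the B2 repressor, had 60.8 and 61.5 CPM in control and 71.6 and 73.9 CPM in the libraries labelled Nestin-Cre. The replicates of each group lay close together and the groups did not overlap. The log2 fold change was 0.24 ± 0.04 (adjusted p = 1.18e-05), a ratio of 1.18 with a 95% interval from 1.12 to 1.25. Sox14, the other B2 gene, had 0 counts in all 4 libraries.

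Sox4, the most abundant SoxC gene, had 554 and 592 CPM in control and 671 and 662 CPM in the libraries labelled Nestin-Cre. Both control values lay below both others. The log2 fold change was 0.21 ± 0.02 (adjusted p = 8.02e-09), a ratio of 1.16 with a 95% interval from 1.12 to 1.199. An antisense long noncoding gene, Gm26735, covers 54.6% of the Sox4 exon, and another, Gm4675, covers 18.8% of the Sox21 exon. Neither has a row in the count tables and whether counting used the strand is unknown here, so Sox4 and Sox21 counts may include reads of these antisense RNAs.

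Sox11, which acts in newborn neurons, had 298 and 300.1 CPM in control and 311 and 319 CPM in the libraries labelled Nestin-Cre. The groups did not overlap, but the difference was small, with a log2 fold change of 0.07 ± 0.03 (adjusted p = 0.0395) and a ratio of 1.05 (95% interval 1.01 to 1.09). The call was lost when any 1 of the 4 libraries was left out (adjusted p = 0.131 and 0.0599 without control replicates 1 and 2, and 0.0576 and 0.286 without Nestin-Cre replicates 1 and 2), without the low-count filter (adjusted p = 0.066) and with DESeq2 (adjusted p = 0.195). The call was kept in the other 8 of 14 alternatives that tested for any difference, and GC and length correction raised the log2 fold change to 0.11 (adjusted p = 0.000505). Sox12, generally the weakest activator of the subgroup, had 105 and 112 CPM in control and 119.6 and 113 CPM in the libraries labelled Nestin-Cre. Control replicate 2 and Nestin-Cre replicate 2 nearly touched. The log2 fold change of 0.09 ± 0.04 just missed the threshold (adjusted p = 0.0509), and it passed in 8 of 14 alternatives, with adjusted p from 0.00633 to 0.476.

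**Figure D1:**
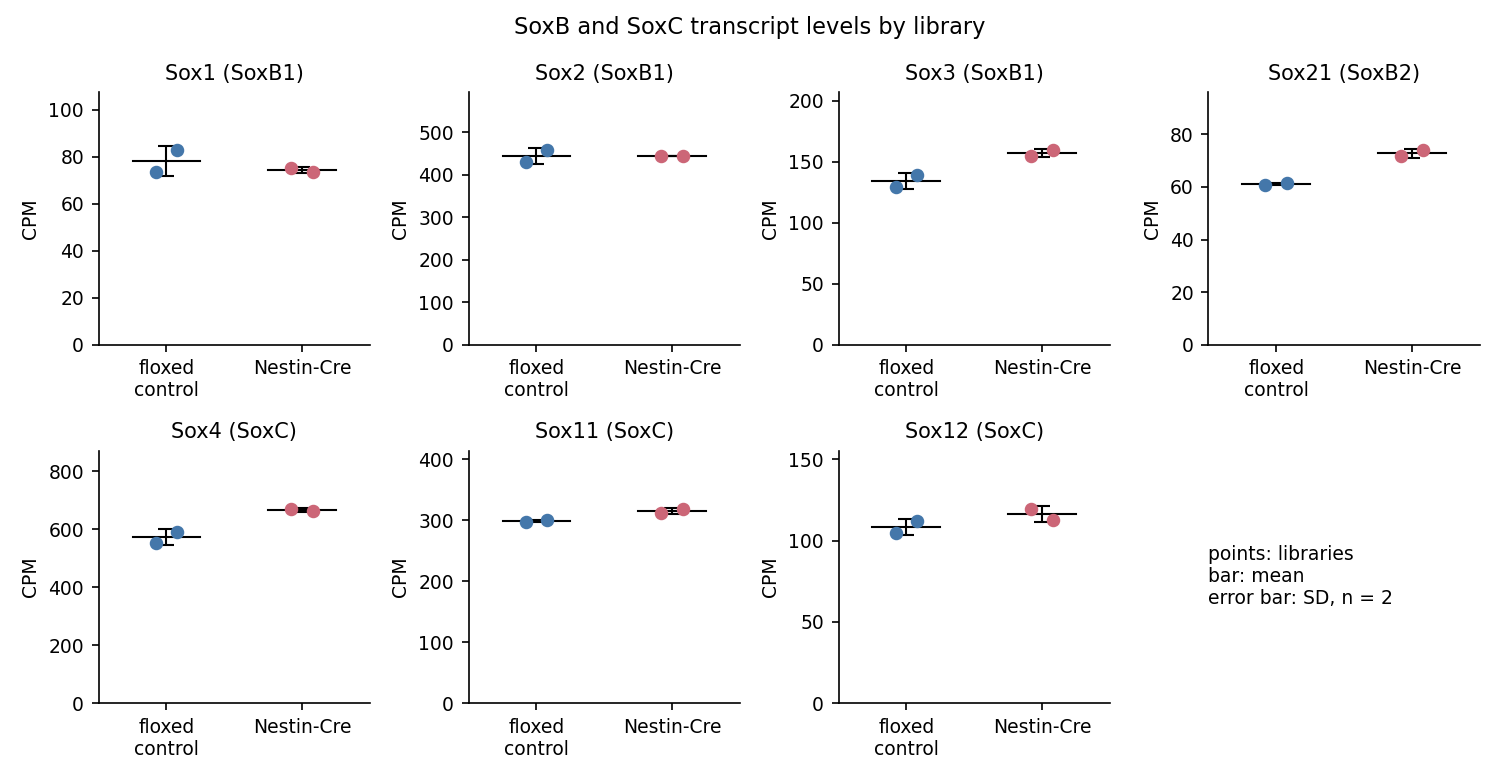
Transcript level in CPM (vertical axes, starting at 0) of each SoxB and SoxC gene in the 2 floxed control and the 2 Nestin-Cre libraries (points), with the mean and SD of each group. The Nestin-Cre points of Sox2 lie between the control points at 430.4 and 457 CPM, while those of Sox3, Sox21 and Sox4 lie above both controls.

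The groups did not overlap, with the Nestin-Cre side higher, for 5 of the 7 genes on the scaled CPM of the fit (all but Sox1 and Sox2), against 32.4% of all tested genes in that direction, 32.5% in the other and 64.9% in either. The median log2 fold change over all tested genes was 0.0047. Within subgroup B1 the log2 fold change of Sox2 lay 0.22 ± 0.04 (SE) below that of Sox3, and within subgroup C that of Sox4 lay 0.14 ± 0.04 above that of Sox11. Sox3, Sox21 and Sox4 differed from one another by less than 1 SE. These differences between genes were not tested, since the genes were picked with earlier results known. When tested against a change of 1.2-fold instead of any change, none of the 7 passed (adjusted p = 1 for each), so even the called rises were not shown to exceed that size.

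**Figure D2:**
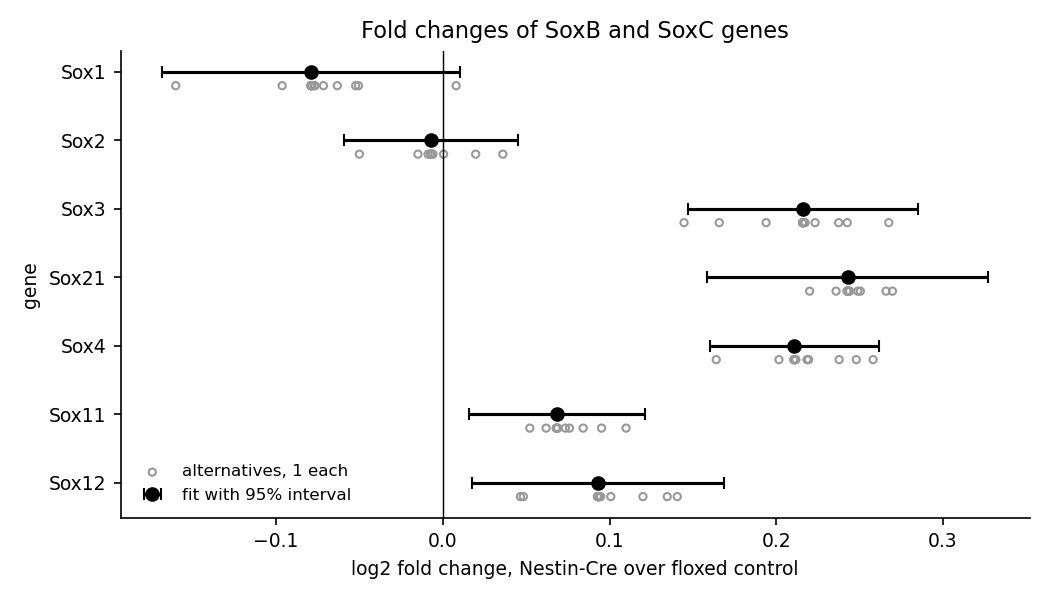
Log2 fold change of each gene (horizontal axis, Nestin-Cre over floxed control) with its 95% interval (black) and the value under each of 15 alternatives (grey circles). Sox3, Sox21 and Sox4 stay above 0.14 in every alternative run, whereas the Sox1 and Sox2 values lie on both sides of 0.

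Levels of different genes were compared per kb of annotated exon. Sox2 was the most abundant, at 216 ± 9.20 CPM per kb in control. Averaged over all 4 libraries, it lay above 99.1% of 14481 tested genes with a length. In control Sox4 followed at 119 ± 5.56, Sox3 at 65.0 ± 3.28, Sox11 at 36.0 ± 0.223 and Sox12 at 24.3 ± 1.13 CPM per kb. Sox1 at 16.2 ± 1.34 and Sox21 at 16.1 ± 0.113 CPM per kb did not differ beyond their spread in control, but in the libraries labelled Nestin-Cre Sox21 at 19.2 ± 0.434 lay above Sox1 at 15.4 ± 0.249 CPM per kb. All other neighbours in the order were further apart than their SDs in both groups. This order depends on the annotated ends of long untranslated regions. Per kb of coding sequence Sox2 (464 ± 19.8 CPM per kb in control) and Sox4 (434 ± 20.2) came within 2 SDs of each other, and Sox4 was the higher of the pair in the libraries labelled Nestin-Cre (505 ± 4.31 against 464 ± 0.746). Sox11 (252 ± 1.56) and Sox12 (115 ± 5.32) then stood above Sox3 (99.5 ± 5.02).

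**Figure D3:**
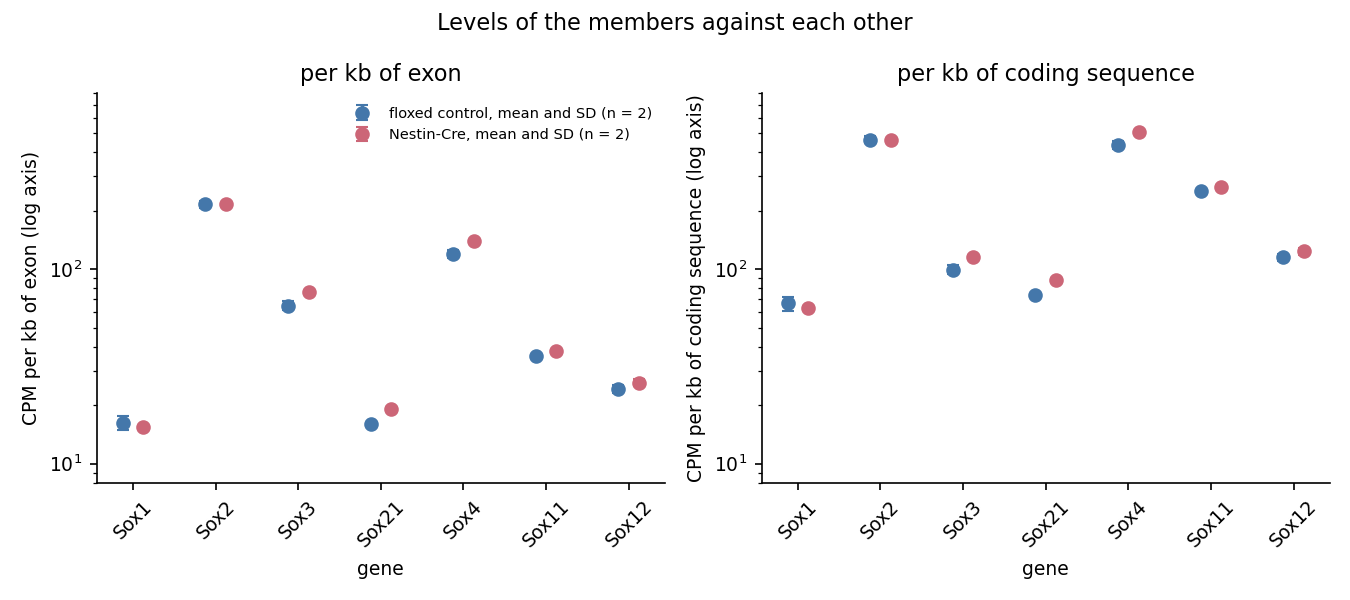
CPM per kb of exon (left) and per kb of coding sequence (right), both on log axes, for each gene as mean and SD of 2 libraries in floxed control (blue) and Nestin-Cre (red). Sox2 leads on the exon scale at 216 CPM per kb in control, and Sox4 reaches it on the coding scale.

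Sox2 made up 72.9% and 72.5% of the summed B1 level per kb in the control libraries and 70.5% and 70.1% in those labelled Nestin-Cre. The share of Sox3 was 21.8% and 21.95% in control and 24.4% and 25.0% in the other group. The summed level of Sox4, Sox11 and Sox12 over that of Sox1, Sox2 and Sox3, per kb of exon, was 0.609 and 0.602 in control and 0.667 and 0.654 in the libraries labelled Nestin-Cre. The SoxC to SoxB1 ratio was thus higher in both Nestin-Cre libraries. It turns the other way when the most abundant gene of each sum is left out: with Sox11 and Sox12 over Sox1 and Sox3 it was 0.761 and 0.725 in control and 0.712 and 0.689 in the other group. The direction of the ratio thus depends on whether Sox4 and Sox2 are in the sums.

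The longest run of identical bases between the transcripts of any 2 members was 48 bases (Sox4 and Sox11), over 21 pairs, short of the 150-base reads, so members could rarely have shared reads. Sox2 lies within the span of the noncoding gene Sox2ot, on the same strand, but shares 0 exon bases with it. Sox2ot was counted at 21.5 and 24.8 CPM in control and 25.1 and 25.4 CPM in the libraries labelled Nestin-Cre, a log2 fold change of 0.11 ± 0.07 that did not pass (adjusted p = 0.208). The pentamer GGACT, a frequent context of N6-methyladenosine and searched on the transcript strand only, occurred 3 times in the 2057 bases of the annotated Sox2 transcript, or 1.46 per kb against a median of 1.04 per kb over tested genes. Of the tested genes 26.5% were at or above the Sox2 density. The pentamer occurred 9 times in Sox4 (1.88 per kb), 12 times in Sox12 (2.69 per kb) and 1 time in Sox21 (0.263 per kb). The densities of Sox3, Sox11 and Sox1 were 1.45, 1.32 and 0.621 per kb. These are letters in the sequence and carry no measurement of methylation.

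Partners and reported targets are given by counts, beside the 15.1% of all tested genes called higher, 18.1% called lower and 33.1% called in either direction. With 6 to 15 tested genes a list, nothing particular to a list is read from its share. Among 7 partner factors of SoxB1 proteins 2 rose and 0 fell. The POU factor gene Pou3f4, X-linked like Sox3, rose from 18.01 ± 0.746 to 22.6 ± 0.842 CPM (0.32 ± 0.07 on the log2 scale, adjusted p = 0.000485). Chd7, a chromatin remodeler that binds Sox2, rose from 192 ± 2.62 to 218 ± 3.66 CPM (0.17 ± 0.03, adjusted p = 8.17e-06). The other POU factors Pou3f1 (0.04 ± 0.06), Pou3f2 (0.06 ± 0.04) and Pou3f3 (-0.0041 ± 0.03), the eye and cortex factor Pax6 (-0.06 ± 0.05) and the cortical factor Lhx2 (-0.02 ± 0.03) did not pass. The median log2 fold change of the list was 0.04.

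Genes reported as targets of SoxB1 factors moved in both directions: 5 of 15 tested rose and 6 fell, with a median of -0.07. The Notch ligand gene Jag1 fell from 43.2 ± 1.82 to 17.8 ± 0.270 CPM (-1.29 ± 0.06 on the log2 scale, adjusted p = 1.48e-19). Socs3, the feedback inhibitor of STAT3 signalling, fell from 43.8 ± 0.503 to 22.1 ± 0.736 CPM (adjusted p = 4.92e-17), and the G1 cyclin gene Ccnd1 fell from 1409 ± 3.73 to 920 ± 5.31 CPM (adjusted p = 5.12e-25). The Notch effector Hes5 rose from 33.4 ± 2.06 to 62.3 ± 6.75 CPM (0.89 ± 0.06, adjusted p = 1.53e-15). The other falls were Nes, Gli3 and Cdkn1a, and the other rises were Egfr, Hes1, Mycn and Notch1, with log2 fold changes between -0.29 and 0.23. Fabp7, Nr2e1, Gli2 and Lin28b did not pass, and Shh was too scarce to test.

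Of 6 tested partner and proneural genes of SoxC factors 3 rose and 0 fell, with a median of 0.10. Neurog2 rose from 5.33 ± 0.0143 to 7.85 ± 0.0312 CPM (0.55 ± 0.12 on the log2 scale, adjusted p = 0.000447), Neurod1 by 0.31 ± 0.09 (adjusted p = 0.00572) and Neurod2 by 0.13 ± 0.04 (adjusted p = 0.0239). The intermediate progenitor factor Eomes did not pass (-0.19 ± 0.23), nor did Pou3f2 and Pou3f3, which are also on the list of SoxB1 partners. Neurog1 was too scarce to test. Of 7 reported SoxC targets 2 rose and 0 fell, with a median of -0.01. The neuronal tubulin gene Tubb3 rose from 406 ± 7.95 to 487 ± 8.46 CPM (0.25 ± 0.02, adjusted p = 7.03e-11) and the dendritic microtubule gene Map2 by 0.16 ± 0.02 (adjusted p = 7.07e-08). The migration gene Dcx (-0.04 ± 0.02), Tead2 (-0.01 ± 0.04), the corticospinal factor Fezf2 (-0.01 ± 0.08), Nrcam (-0.03 ± 0.03) and Plxnc1 (-0.02 ± 0.05) did not pass. Several genes of these lists are also on the lists of cell type markers below, so the counts are not independent: Tubb3, Map2, Dcx and Neurod2 as neuronal, Neurog1, Neurog2 and Eomes as intermediate progenitor, and Nes, Hes1, Hes5, Fabp7, Pax6 and Lhx2 as neural stem cell markers.

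**Figure D4:**
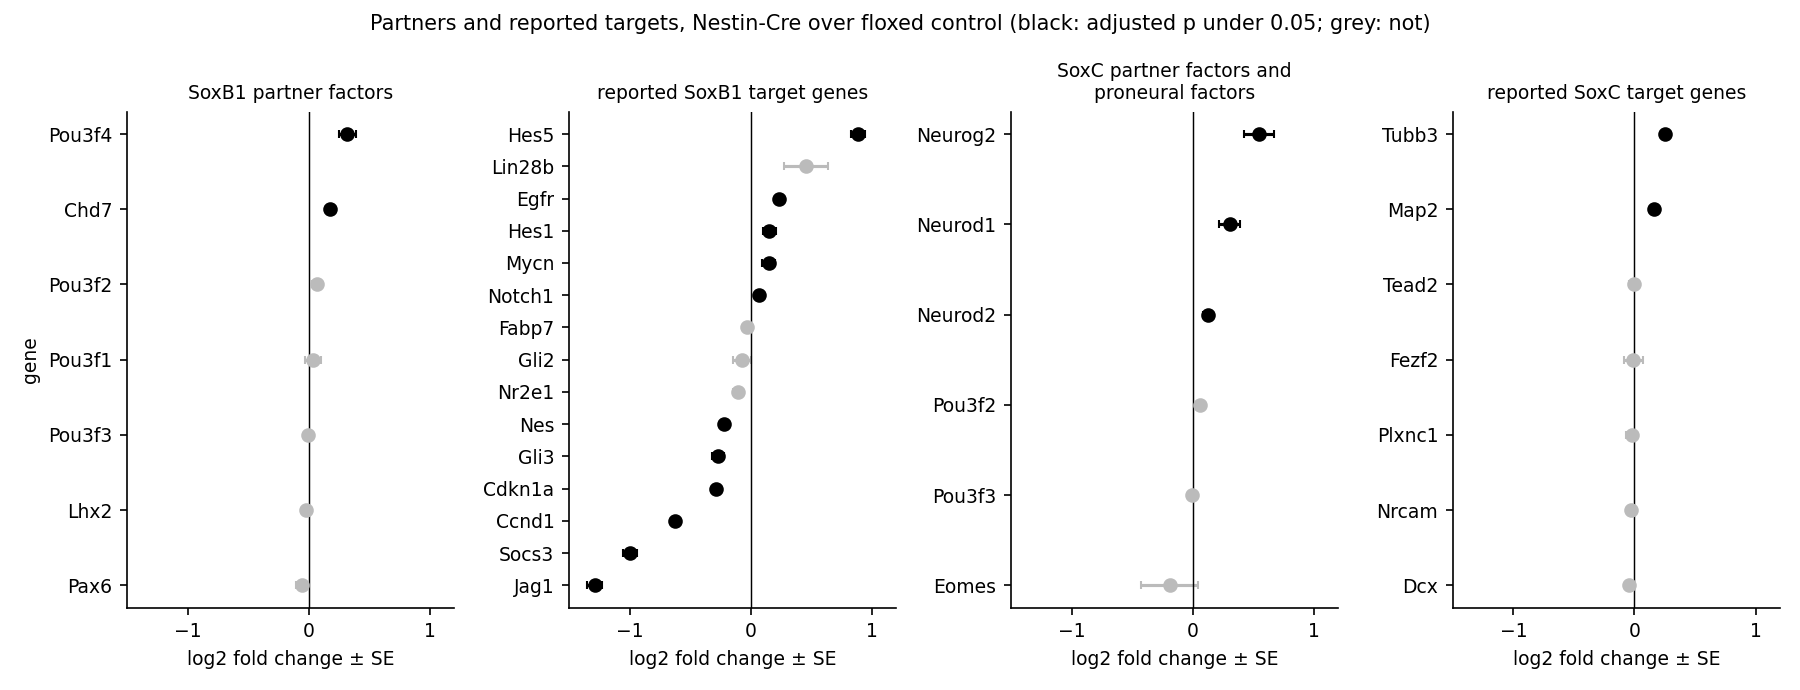
Log2 fold change ± SE (horizontal axes, Nestin-Cre over floxed control) of the tested partners and reported targets of SoxB1 and SoxC factors, black where the adjusted p was under 0.05. SoxB1 targets spread from -1.29 (Jag1) to 0.89 (Hes5). The SoxC partners (3 of 6), SoxC targets (2 of 7) and SoxB1 partners (2 of 7) that passed are all higher. The median of the SoxC targets is -0.01.

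The cultures held several cell classes, and many of their markers differed between the groups. Counts of called markers here and in the next paragraph stand beside 15.1% of all tested genes called higher and 18.1% called lower. In either direction, 33.1% of all tested genes were called, and 48.3% of those with a mean log2 CPM of at least 6. Nothing particular to a list is read from its share. Markers of neural stem cells and radial glia were abundant in every library, at a summed 9960 to 10082 CPM in control and 8469 to 8480 CPM in the libraries labelled Nestin-Cre, with 8 of 15 fallen and 2 risen. Neuronal markers summed to 2756 to 2780 CPM in control and 3152 to 3172 CPM in the other group, with 8 of 14 risen and 0 fallen. Intermediate progenitor markers summed to 254 CPM in both controls and 295 CPM in both other libraries, with 6 of 8 tested risen and 1 fallen. Within this list Neurog2 rose, but Eomes, at 2.00 ± 0.531 CPM in control and 1.76 ± 0.0780 CPM with Nestin-Cre, did not pass. Oligodendrocyte lineage markers, a lineage that also uses Sox2 and Sox4, went from 1409 to 1451 CPM up to 1556 to 1590 CPM, with 5 of 10 risen and 1 fallen. No marker of these lists was at 0 in a whole group except Neurog1 in the Nestin-Cre group. Fewer cells of a type and less RNA per cell cannot be told apart in such bulk samples, and the part of cell composition in the Sox values was not tested.

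Choroid plexus markers rose for 7 of 8 genes, from a summed 213 to 221 CPM in control to 1368 to 1382 CPM. Astrocyte markers fell for 7 of 10 and rose for 2, from 4647 to 4670 down to 3544 to 3596 CPM. Markers of mural cells, fibroblasts and meninges fell for 7 of 9 tested and rose for 2, from 185 to 189 down to 68.0 to 71.2 CPM. Microglial markers fell for 5 of 6 tested, from 6.53 to 7.75 down to 2.58 to 3.19 CPM. Endothelial markers moved in both directions, with 2 risen and 2 fallen of 8 tested and a median log2 fold change of 0.22. Their sum nevertheless went from 22.2 to 22.8 down to 15.8 to 17.9 CPM. Flt1, the most abundant of them in control, fell from a mean of 11.9 CPM to 4.23 CPM in the libraries labelled Nestin-Cre. The lower sum is therefore not read as a fall of the list. Interneuron markers rose for 2 and fell for 5 of 10, at 266 to 271 and 257 to 264 CPM. The 4 globin genes of the erythroid list had 0 counts in all libraries. The part of these shifts in the Sox values was not tested.

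**Figure D5:**
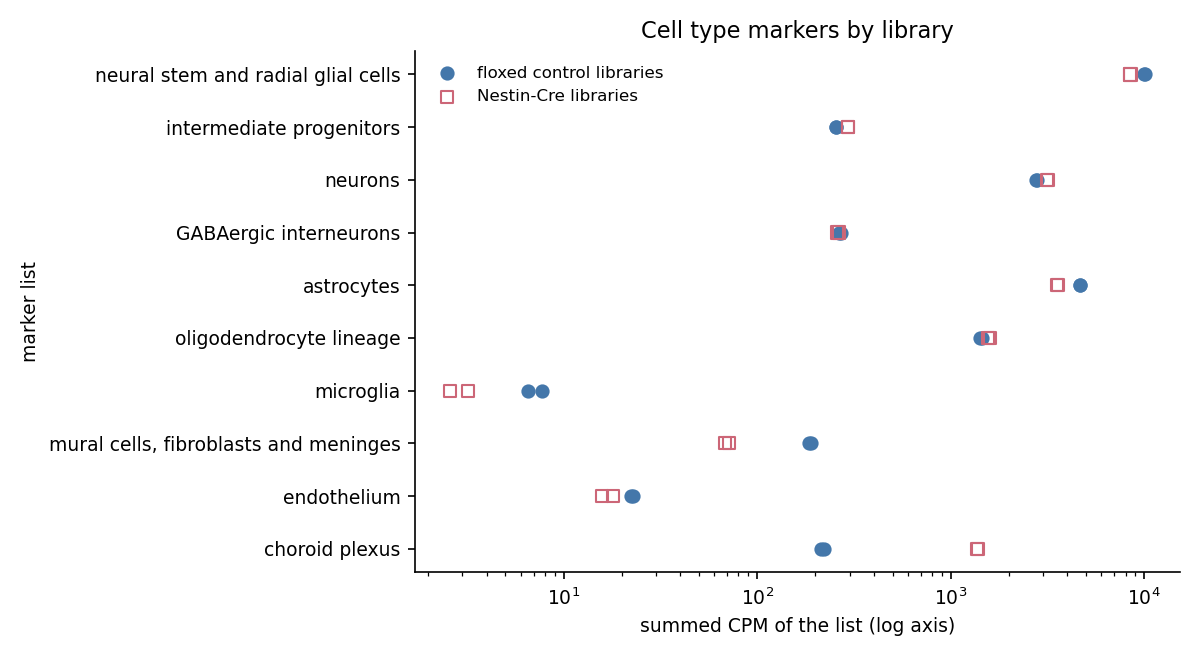
Summed CPM of each cell type marker list (horizontal log axis) in the 2 floxed control libraries (filled circles) and the 2 Nestin-Cre libraries (open squares). Choroid plexus markers stand at 213 to 221 CPM in control and 1368 to 1382 CPM in the Nestin-Cre libraries, and neuronal markers shift to the right by a smaller step.

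By the distance between log2 CPM profiles over the 4 libraries, each centred on its own mean, the genes most like Sox2 among 11094 with a mean log2 CPM of at least 3 were Srsf9, Cdc7, Exo1, Eif6 and Smarcal1, at distances of 0.0101 to 0.0123. Those most like Sox11 were Arid4a, Atg4b, Ctnna2, Peg3 and Sf1, at 0.00416 to 0.00721. Only 4 libraries enter each distance, and how common such closeness is among other genes was not measured.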

How the data were processed

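Per the labels' protocols, poly(A) RNA was made into dUTP-marked paired-end libraries with reads of 150 bases. The submitters' processing notes list DESeq2 1.26.0, HTSeq 0.12.4 and HISAT2 2.2.1 and build mm10; how strand was handled in counting, and with which annotation, is not given in those sources. The authors deposited unnormalized counts for each gene symbol; 5 summary lines (25.2% to 26.1% of entries) were left out. Groups and replicate numbers came from the sample titles. Replicates differed by more than sampling noise (chi-square per gene 1.96 and 2.20), so none were merged.

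Counts were tested with edgeR 4.0.16 (R 4.3.3): filterByExpr, trimmed mean of M values, quasi-likelihood F test with legacy off, Benjamini-Hochberg over 15012 genes, threshold 0.05. SEs were derived from the log2 fold change and its F statistic. An exact permutation test of 2 against 2 libraries cannot go below 0.333 and was not used. The steps were tested on simulated data. Alternatives used DESeq2 1.42.0, limma 3.58.1 (voom), other scalings, filters, a replicate block, GC and length correction, and leaving out each library. Of the symbols, 95.7% were found in GENCODE M21. A floor of 3 counts is 0.106 to 0.116 CPM and covers counting error only. The members, lists and tests were chosen with earlier results of these data known. All members are named. Up to 4 genes of smallest p from each list of partners or targets are named, with the rest of lists of 8 or fewer. The remaining SoxB1 targets, Sox5, Sox6, Sox13, Sox14, Sox30 and Flt1 were named after their values were seen. A few genes of these lists are not reported here and are left out of the lists' counts.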

Additional observations from a re-analysis of the deposited data

How the results depend on the processing

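Sox3, Sox21 and Sox4 kept their direction and passed in all 14 alternatives that tested for any difference; against a 1.2-fold change their log2 fold changes of 0.22, 0.24 and 0.21, and that of Sox11 (0.068), did not pass. The Sox2 value turned to 0.020 with upper quartile scaling and to 0.00045 with total count scaling. Sox11 was not called without the low-count filter (0.069) or with DESeq2 (0.068). Sox12 was called with DESeq2 style size factors (0.093), upper quartile (0.12) and total count scaling (0.10), limma voom (0.093), the replicate block (0.093) and GC and length correction (0.095). The cause of these changes was not tested. Leaving out each library in turn gave -0.16 to 0.0080 for Sox1, -0.050 to 0.036 for Sox2, 0.17 to 0.27 for Sox3, 0.22 to 0.27 for Sox21, 0.16 to 0.26 for Sox4, 0.052 to 0.084 for Sox11 and 0.047 to 0.14 for Sox12, and 3990 to 4285 genes called; the group left with 1 library was assumed to vary like the other. DESeq2 called 2521 genes in place of 4974, and the test against 1.2-fold 1039. The split was 2263 higher and 2711 lower, but 2939 and 2288 with upper quartile scaling and 2923 and 2211 with GC and length correction. With the replicate block 5323 genes were called; replicate numbers came from the titles only, the deviations of same-numbered libraries correlated at 0.0922, and Sox12 was the single member whose call changed. Per kb of coding sequence the SoxC to SoxB1 ratio was 1.27 in control and 1.39 in the libraries labelled Nestin-Cre, and without the most abundant gene of each sum 0.743 and 0.700.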

Other observations

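All 7 SoxB and SoxC genes were higher in control replicate 2 than in control replicate 1 on the scaled CPM, by 0.887% (Sox11) to 12.4% (Sox1). Counting errors were 1.21% to 3.49% (SE). The differences of Sox11 (0.887%) and Sox21 (1.01%) were smaller than their own counting errors of 1.58% and 3.49%. Between the replicates labelled Nestin-Cre 4 of the 7 were higher in replicate 2, and the differences ran from -5.78% (Sox12) to 3.27% (Sox21).

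Of 13 other Sox genes, 8 were counted often enough to test, and 3 of these were called higher and 2 lower. Among all tested genes 15.1% were called higher, 18.1% lower and 33.1% in either direction. Nothing particular to the list is read from its share. Sox6 (0.01 ± 0.04 on the log2 scale), Sox13 (-0.04 ± 0.08) and Sox30 (0.21 ± 0.48) did not pass. The glial genes Sox8 (153 ± 1.69 to 249 ± 2.70 CPM) and Sox10 (61.7 ± 0.716 to 81.5 ± 3.50 CPM) and the SoxD gene Sox5 (58.7 ± 0.855 to 63.9 ± 0.966 CPM) rose, and the glial gene Sox9 (239 ± 3.21 to 203 ± 0.404 CPM) and the SoxF gene Sox7 (30.9 ± 1.18 to 4.76 ± 0.293 CPM) fell, each at adjusted p under 0.05 in the edgeR quasi-likelihood test.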
